A study of Mus musculus with 47 samples.

Results

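Neuropeptides are cut from longer precursor proteins, stored in dense core vesicles and released beside the fast transmitter of a neuron, and most act on G protein-coupled receptors. Cortical and hippocampal interneurons are commonly sorted by the peptide genes they transcribe, and neuropeptide Y (NPY) marks neurogliaform cells and several other GABAergic types. Data are given here for 9 neuropeptide genes besides Npy, Sst, Cort, Vip, Adcyap1, Cck, Tac1, Penk, Pnoc and Crh, which are 9 of the 22800 gene rows of the count table. They were chosen by name, as peptides of interneurons, and were read cell by cell in 26 NPY-positive neurons.

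The study compared NPY-positive neurons from auditory cortex (AC) with those from hippocampal area CA3 by single-cell RNA sequencing, after their electrical properties had been recorded. The cytosol of 1 neuron, aspirated through the patch pipette, made each library, so that each sample is 1 cell. AC cells lay in layers L1 and L2 of coronal slices, and CA3 cells in stratum lacunosum-moleculare of horizontal slices. Mice were 3 to 8 weeks old, of both sexes, with no treatment named, and of 1 reporter strain, named NPY-hrGFP or NPY-EGFP, in which a green fluorescent protein under the Npy promoter marks the cells. Since the cells were picked by this reporter, the presence of Npy is not a finding, and the reporter itself was not measured.

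The values below come from 10 of 20 AC columns, 13 of 21 CA3 columns and all 3 CA1 columns of the table. The study used more CA3 cells than these, the labels do not say which columns passed its quality control, and the shares of CA3 cells hold for the cells listed here. The 2 dentate gyrus columns and the 1 NPY-negative CA3 column were not compared. Neither labels nor paper give the mouse of a cell, and 8 mice are named for the whole set. Each region was therefore 1 sample, no test was made, and SDs describe the spread over cells. Slice plane goes with region, so that their parts in a difference cannot be told apart. Total counts per cell ran from 1715012 to 6265431 reads in AC, from 2229519 to 7949918 in CA3 and from 601781 to 3202430 in CA1. The GABAergic markers Gad1 and Gad2 had at least 10 reads in all 26 cells. The medial ganglionic eminence gene Lhx6 had at least 10 reads in 10 CA3 cells and no read in AC or CA1, whereas Kit had at least 10 reads in all 10 AC cells, in 2 CA3 cells and in all 3 CA1 cells. The regions thus differed in interneuron class markers beside the peptides, and the part of this in the differences below was not tested.

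A cell is said to carry a peptide gene when at least 10 reads fell on it. By this rule 5 of the 9 genes were carried by at least 1 cell. Pnoc was carried by 26 of 26 cells, Cort by 18, Cck by 15, Penk by 2 and Tac1 by 1. Sst, Vip, Adcyap1 and Crh had no read in any of the 26 cells. For comparison, 54.8% of the genes of the table were carried by at least 1 of these cells and 39.3% had no read in any of them.

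**Figure D1:**
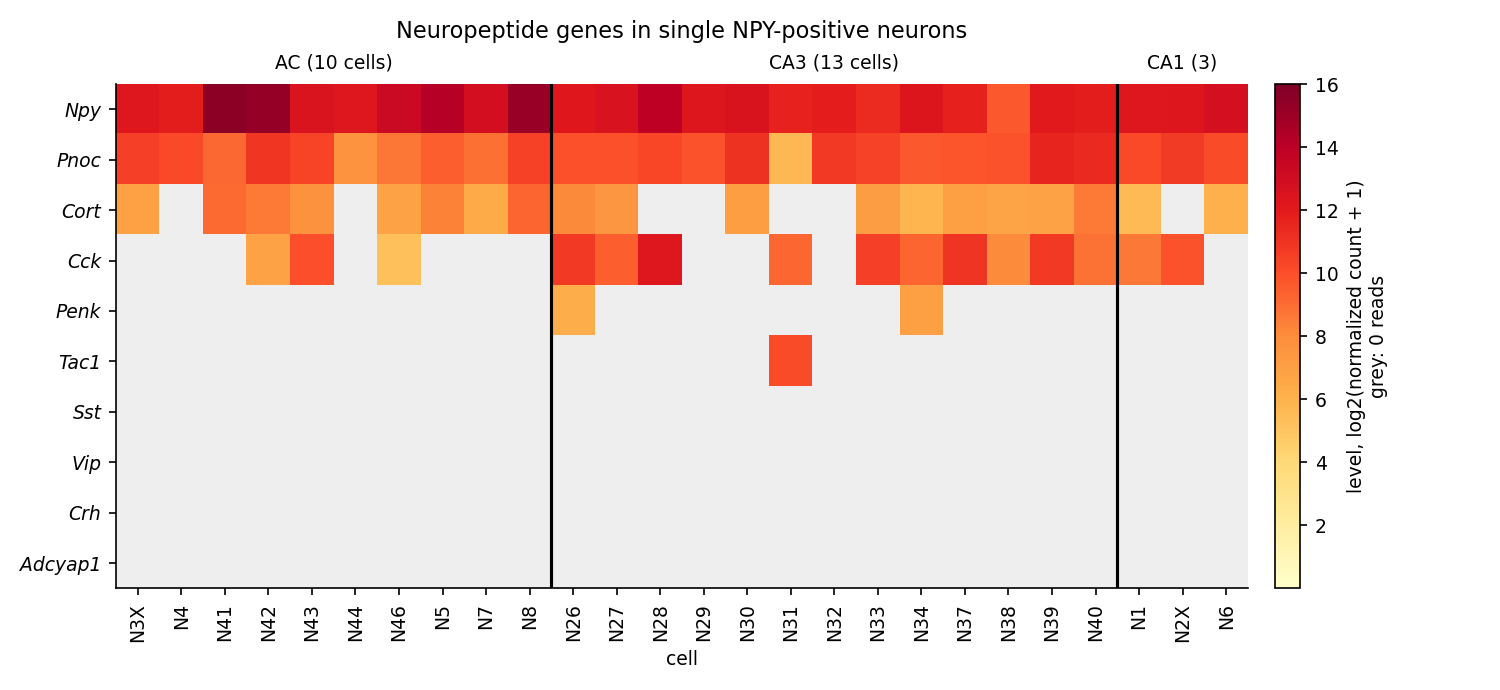
Level of Npy and of 9 further neuropeptide genes (rows) in 26 single NPY-positive neurons (columns), grouped as 10 AC, 13 CA3 and 3 CA1 cells; colour gives log2(normalized count + 1) and grey marks 0 reads. Pnoc is filled in every column, Cort and Cck in part of them, and the rows of Sst, Vip, Crh and Adcyap1 are empty.

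Somatostatin (Sst) and cortistatin (Cort) are related peptides that bind the same somatostatin receptors, and Sst marks a large class of dendrite-targeting interneurons. The 2 genes end in related coding sequence, which is shown because 1 gene was read in these cells and the other was not. Below are the last 45 coding bases of Sst, from the minus strand of chromosome 16, and the matching stretch of Cort, from the minus strand of chromosome 4, 1 codon before its stop-side end, both from GENCODE vM21 transcripts on GRCm38. Capitals mark bases that are the same in both.
Sst: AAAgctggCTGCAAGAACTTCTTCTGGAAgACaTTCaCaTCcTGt
Cort: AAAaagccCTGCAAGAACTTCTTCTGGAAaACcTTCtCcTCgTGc
The stretches shared 34 of 45 bases (75.6%), with a longest identical run of 21 bases, which was also the longest run the full coding sequences shared. Reads were counted on Cort in 19 of the 26 cells and on Sst in none of them.

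Sst (chr16:23889573-23890958) had 0 reads in all 26 cells, and a count of 0 allows at most 0.0881 CPM (reads on the gene per 1000000 reads of the cell or region) over the AC cells, 0.0614 over the CA3 cells and 0.596 over the CA1 cells. Each limit is 3 reads divided by all reads of that region's cells, and these limits, like the intervals of summed reads below, cover counting error only. Intervals of shares of cells take cells as independent draws, which cells of 1 mouse may not be, and regions are not compared by them. For shares of cells the exact Clopper-Pearson 95% interval of 0 of 10 AC cells reached 30.8%, and that of 0 of 13 CA3 cells reached 24.7%.

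Cort (chr4:149125034-149126763) was carried by 8 of 10 AC cells (80.0%, 95% interval 44.4 to 97.5%), 9 of 13 CA3 cells (69.2%, 38.6 to 90.9%) and 1 of 3 CA1 cells. In AC its reads ran from 0 in N4 and N44 over a median of 180.0 to 1092 in N8. In CA3 they ran from 0 in N28, N29, N31 and N32 over a median of 108.0 to 459 in N40. The CA1 cells N1, N2X and N6 had 8, 0 and 26 reads. Cort was thus either clearly read or at 0 in AC and CA3, where the carrying cells had 62 reads or more, and the ranges of the regions overlapped. Summed pyramidal markers had medians of 45.6 CPM in AC carriers and 105 in the other AC cells, and of 2.11 and 50.4 in CA3. For astrocyte markers they were 68.8 and 605 CPM in AC and 0.232 and 61.7 in CA3. Oligodendrocyte markers went the other way in CA3, with 51.5 and 14.8 CPM. The part of such transcripts in the Cort values was not tested.

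With the reads of all cells added up, Cort stood at 78.6 CPM for AC (exact Poisson 95% interval 75.7 to 81.6), 34.2 CPM for CA3 (32.6 to 35.9) and 6.75 CPM for CA1 (4.68 to 9.44). The mean log2 level was 6.31 ± 3.47 (SD, n = 10) in AC and 4.97 ± 3.51 (n = 13) in CA3, a difference of 1.34 that was smaller than either SD. A difference of at least 1 is spoken of as called here, and 5964 genes that were read in 10 or more of the 23 AC and CA3 cells served as background. Of these, 63.4% were called in either direction and 15.4% higher in AC. Of the 9 peptide genes 3 entered this comparison: Cort was called higher in AC, Cck higher in CA3, and Pnoc in neither direction. Cck met the minimum of 10 cells through its 10 CA3 cells alone, the region where it is high, so that its call and its place among the tested genes are a description. The median difference of those genes was -0.91. The call of Cort rested on single cells: without N28 the difference was 0.93, and it was also under 1 without N29, N31 or N32. With all labelled cells it was 0.25, but these include columns without Npy. Outside the 26 cells, at least 10 Npy reads were present in 5 of 10 AC columns, N4X among them, and in 1 of 8 CA3 columns. Cort lies 357 bases from Cenps on the same strand, listed as Apitd1 in the table, which had 361 reads in all and was carried by 2 of the 26 cells.

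Across AC cells, Cort went with Npy. The 4 cells with the highest Cort level, N8, N41, N42 and N5, were also the 4 with the highest Npy level, and the cells without Cort, N4 and N44, were the 2 lowest for Npy. Spearman's rho of the log2 levels was 0.86 over the 10 cells (Pearson's r = 0.72), 0.74 over the 8 cells that carried Cort, and 0.80 over the 8 cells left without N41 and N42, which lay farthest from the median of Npy. Among Npy, Pnoc, Cort and Cck this pair had the highest rho in AC. The other pairs there ran from 0.14 (Cort and Cck) to 0.52 (Pnoc and Cort). For Cort and Npy in the 13 CA3 cells rho was 0.00 and r was -0.29. Over the 11 cells left without N28 and N38 they were 0.17 and 0.14. The values are a description, since cells share library preparation, differ in depth and may share a mouse, and the difference between regions was not tested.

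Vasoactive intestinal peptide (Vip, chr10:5639218-5647617) marks interneurons that contact other interneurons, and its relative Adcyap1 (chr17:93199017-93206537) encodes PACAP, found mostly in excitatory cells. Both peptides raise cyclic AMP through shared receptors. Vip and Adcyap1 had 0 reads in each of the 26 cells and in each of the 47 columns of the table. By contrast Adcyap1r1, the receptor that prefers PACAP, was carried by 6 AC cells, 8 CA3 cells and 1 CA1 cell, while Vipr2 had no read and Vipr1 was carried by no cell.

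Transcription of Sst and Vip is known for its response to cyclic AMP through a cyclic AMP response element (CRE) upstream of the start, and promoters of silent and carried members are shown for this reason. RefSeq windows were at hand for Sst, Cort, Vip, Adcyap1, Cck, Tac1 and Npy, 7 of the 10 genes. For Sst the RefSeq start and the window lie inside the gene span given above, which is from GENCODE. The 100 bases before the start, on the gene's strand and on build GRCm38.p6, stand below for Sst (chr16:23890845-23890944, minus), Vip (chr10:5639118-5639217, plus), Cort (chr4:149126764-149126863, minus) and Cck (chr9:121495695-121495794, minus). Capitals mark the full CRE, TGACGTCA, or its core TGACG on either strand, which the full site contains.
Sst: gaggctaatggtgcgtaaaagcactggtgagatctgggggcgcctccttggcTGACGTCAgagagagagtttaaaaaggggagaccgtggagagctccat
Vip: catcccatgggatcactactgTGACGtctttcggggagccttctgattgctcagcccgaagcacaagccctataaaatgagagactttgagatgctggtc
Cort: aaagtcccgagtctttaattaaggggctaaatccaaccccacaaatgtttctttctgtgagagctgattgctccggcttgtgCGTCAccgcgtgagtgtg
Cck: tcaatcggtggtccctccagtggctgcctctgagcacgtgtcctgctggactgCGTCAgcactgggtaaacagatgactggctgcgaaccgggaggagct
Of these 7 genes the full site was present in Sst alone, against 1.15% of 32851 windows of this length, and the core was present in 6, all but Npy, against 10.5% of windows. Adcyap1 had 2 windows, of which 1 held the core, so that the count is by gene and the share by window. Both silent genes (Sst, Vip, Adcyap1) and carried genes (Cort, Cck, Tac1) held the core, so that its presence did not separate them. A match of letters is not a measured binding site.

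Cholecystokinin (Cck, chr9:121489824-121495694) marks a class of basket cells in cortex and hippocampus and is also used by pyramidal cells. It was the member that differed most between the regions. Cck was carried by 3 of 10 AC cells (95% interval of the share 6.67 to 65.2%) and by 10 of 13 CA3 cells (76.9%, 46.2 to 94.96%). The AC carriers N42, N43 and N46 had 92, 961 and 35 reads and the remaining 7 AC cells had none. In CA3, N29, N30 and N32 had no read, the median was 589.0, and the highest was N39 with 4484 reads. The highest AC cell lay within the CA3 range.

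Summed Cck reads came to 31.9 CPM (95% interval 30.1 to 33.9) for the AC cells and to 337 CPM (332 to 343) for the CA3 cells. A single cell, N43, held 88.3% of the AC reads. The mean log2 level was 2.20 ± 3.72 (SD, n = 10) in AC and 7.70 ± 4.52 (n = 13) in CA3. The difference of -5.50 was larger than either SD, and 48.1% of the genes tested were called higher in CA3. Leaving out any 1 cell kept the Cck difference between -6.36 (without N43) and -5.13 (without N28). With every cell thinned to 601000 reads it was -4.31, and Cck was carried by 2 AC and 10 CA3 cells.

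The 3 CA1 cells split for Cck, with 70 reads in N1, 852 in N2X and 0 in N6. Since pyramidal cells use Cck, their 7 markers were summed beside it. In CA3 the sum was 0.400 to 383 CPM in cells that carried Cck, with a median of 11.3, and 1.43 to 29.1 CPM, with a median of 6.63, in the 3 that did not. Of these markers Neurod6 and Tbr1 had no read in the CA3 carriers. Camk2a had 704 reads in N28, 401 in N26, 255 in N31 and 146 in N33, all carriers. In the other carriers, N27, N34, N37, N38, N39 and N40, it had 1, 0, 9, 0, 8 and 37 reads. The cells without Cck, N29, N30 and N32, had 20, 3 and 90. In AC the sum was 5.45 to 190 CPM in carriers and 0.229 to 112 CPM in the others. In CA1 it was 648 CPM in N1, the highest of the 26 cells, 0.312 in N2X and 50.4 in N6. Slc17a7, the vesicular glutamate transporter of pyramidal cells, had 333 reads in N46, 31 in N26 and 15 in N39, which carried Cck, and 216 in N8, which did not. The summed markers of microglia had a median of 1466 CPM in AC carriers of Cck and 157 in the other AC cells, and of 126 CPM in CA3 carriers and 0 in the others. For oligodendrocyte markers the medians were 83.7 and 29.4 CPM in CA3, and for astrocyte markers 0.216 and 87.5 CPM. In AC both went the other way, with 0.0 and 0.458 CPM for oligodendrocyte markers and 81.7 and 55.9 CPM for astrocyte markers. The part of such transcripts in the Cck values was not tested.

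**Figure D2:**
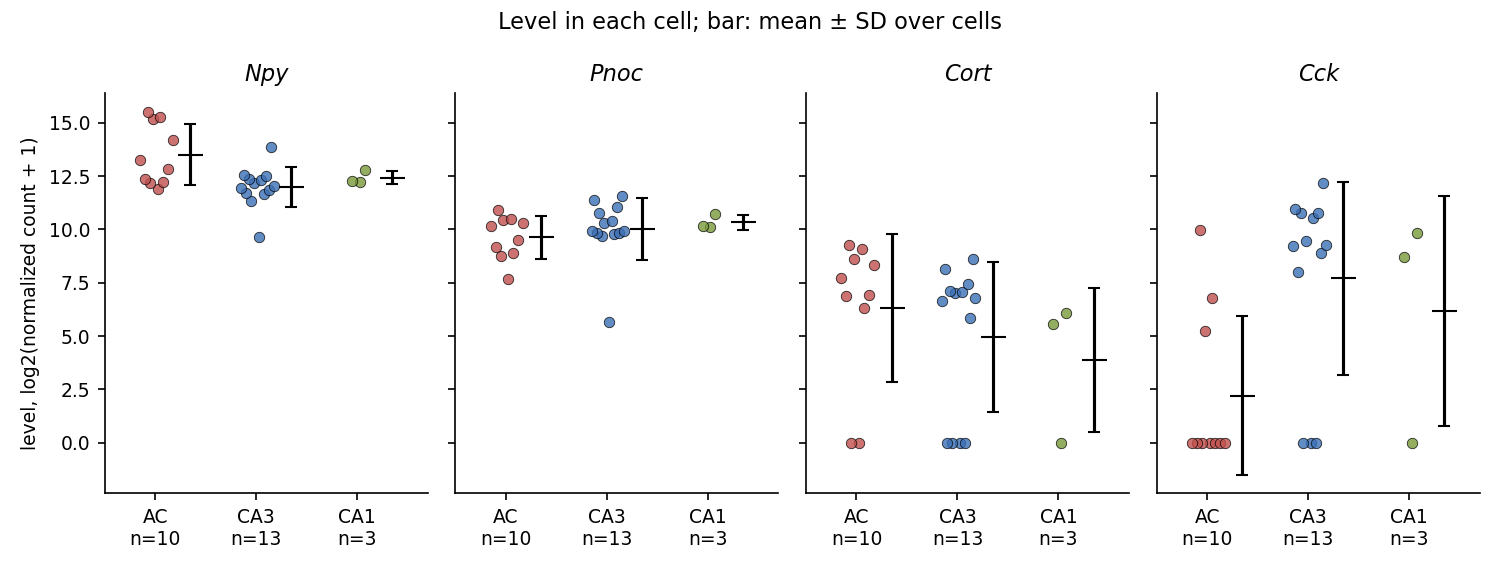
Level, log2(normalized count + 1), of Npy, Pnoc, Cort and Cck in each NPY-positive neuron of AC (n = 10), CA3 (n = 13) and CA1 (n = 3); points are cells and bars the mean ± SD over cells. Pnoc lies within a similar range in the 3 regions, while Cort and Cck split in AC and CA3 into carrying cells and cells at 0, with 7 of 10 AC cells at 0 for Cck.

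Preprotachykinin (Tac1, chr6:7554879-7565834) encodes substance P, used by part of the parvalbumin and somatostatin classes. Of the 26 cells it was read in 1, the CA3 cell N31, with 1087 reads (302 CPM). N31 was also the cell with the lowest Pnoc count and had no Cort read. The receptor for substance P, Tacr1, was carried by 3 CA3 cells and by no AC or CA1 cell.

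Preproenkephalin (Penk, chr4:4133531-4138819) encodes the enkephalins, which act on delta and mu opioid receptors. It was read in 2 CA3 cells, with 48 reads in N26 and 194 in N34, and in no AC or CA1 cell. The difference in mean log2 level was -1.01, but Penk had reads in too few cells to enter the comparison of genes, and the value was -0.52 without N34 and -0.58 without N26. Penk shares 233 exon bases with the opposite-strand transcript A830012C17Rik, and reads of the 2 cannot be told apart where counting ignores strand. The delta receptor gene Oprd1 was carried by 1 CA3 cell and the mu receptor gene Oprm1 by none.

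Prepronociceptin (Pnoc, chr14:65400673-65425472) encodes nociceptin, an opioid-like peptide that binds its own receptor, OPRL1. It was carried by all 26 cells, which held for 0.864% of the genes of the table. Reads ran from 187 in N44 over a median of 578.5 to 2500 in N8 in AC. In CA3 they ran from 49 in N31 over a median of 1122.0 to 7713 in N39. The CA1 cells N1, N2X and N6 had 192, 1600 and 433 reads. The ranges of the 3 regions overlapped, and N31 stood lowest of all cells.

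Summed Pnoc reads came to 289 CPM (95% interval 283 to 295) for AC, 465 CPM (459 to 471) for CA3 and 442 CPM (424 to 461) for CA1, and 33.9% of the CA3 reads came from N39. The mean log2 level was 9.63 ± 1.01 (SD, n = 10) in AC, 10.01 ± 1.46 (n = 13) in CA3 and 10.33 ± 0.36 (n = 3) in CA1. The AC minus CA3 difference of -0.38 was smaller than either SD and changed sign, to 0.26, with all labelled cells, which include columns without Npy. It was -0.74 without N31 and -0.16 without N44. Oprl1, the receptor, was carried by 2 AC cells, 3 CA3 cells and 1 CA1 cell.

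Corticotropin-releasing hormone (Crh, chr3:19693401-19695396), a stress peptide also made by hippocampal interneurons, had 0 reads in each of the 47 columns. Its receptors Crhr1 and Crhr2 and its binding protein Crhbp were carried by none of the 26 cells.

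**Figure D3:**
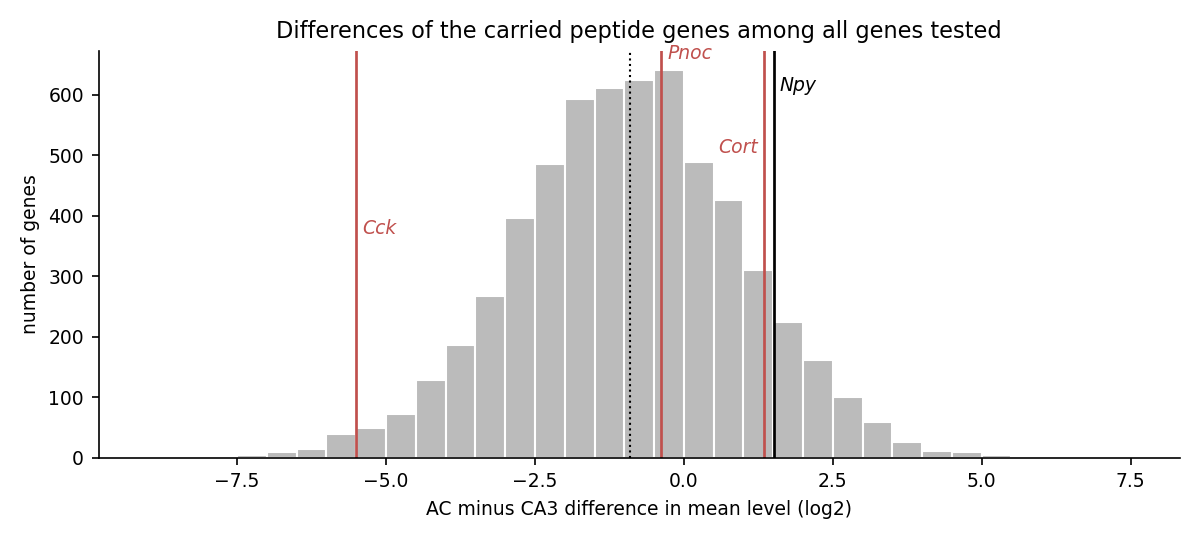
Number of genes (vertical axis) by AC minus CA3 difference in mean log2 level (horizontal axis) for the 5964 genes tested, with the differences of Cck, Pnoc, Cort and Npy as solid lines and the median of all genes, -0.91, as a dotted line. Cck (-5.50), which entered through its CA3 cells, lies in the left tail, Pnoc (-0.38) near the middle, and Cort (1.34) and Npy (1.51) to the right.

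Most cells carried more than 1 of the 9 peptide genes beside Npy. At least 2 were carried by 8 of 10 AC cells (80.0%, 95% interval 44.4 to 97.5%), 11 of 13 CA3 cells (84.6%, 54.6 to 98.1%) and all 3 CA1 cells. At least 3 were carried by 3 AC cells, 9 CA3 cells and no CA1 cell. Thinned to equal depth, at least 2 genes were again carried by 8 AC, 11 CA3 and 3 CA1 cells. With a minimum of 100 reads they were carried by 7 AC cells, 11 CA3 cells and 1 CA1 cell. Because every cell carried Pnoc, a second peptide here means Cort, Cck, Penk or Tac1 beside it.

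In AC the pair of Cort and Pnoc was the most frequent set, in the 5 cells N3X, N41, N5, N7 and N8. The AC cells N42, N43 and N46 carried Cort, Cck and Pnoc. N4 and N44 carried Pnoc alone. Each AC cell with Cck thus also carried Cort.

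In CA3 the set of Cort, Cck and Pnoc was the most frequent, in the 6 cells N27, N33, N37, N38, N39 and N40. N26 and N34 carried Penk in addition and, with 4 genes each, the largest sets of the 26 cells. N31 carried Cck, Tac1 and Pnoc, N28 carried Cck and Pnoc, and N30 carried Cort and Pnoc. N29 and N32 carried Pnoc alone. Of the 10 CA3 cells with Cck, 8 also carried Cort.

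In CA1, N1 and N2X carried Cck and Pnoc, and N6 carried Cort and Pnoc. The 8 Cort reads of N1 were under the minimum. Over the 26 cells, Cort and Cck occurred together in 11, Cort without Cck in 7, Cck without Cort in 4, and neither in 4.

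The peptide sets were also read against class markers. N29, with Pnoc alone, was the one CA3 cell with reads of Htr3a (2075) and Ndnf (2125), had 9788 reads of Cnr1 and had none of Lhx6. N32, also with Pnoc alone, had 2377 reads of Lhx6. Of the 10 CA3 cells with at least 10 reads of Lhx6, 7 carried Cort and 8 carried Cck, and of the other 3, 2 carried Cort and 2 carried Cck. In AC, Cck was carried by none of the 5 cells with at least 10 reads of Prox1, a gene of the caudal ganglionic eminence, and by 3 of the other 5, of which N43 had 6 Prox1 reads. By the same minimum, the 1 CA3 cell and 2 of the 3 CA1 cells with Prox1 carried Cck. Cort was carried by 4 of the 5 AC cells with Prox1 and by 4 of the other 5. Ndnf, Nos1, Reln and Cnr1 were read against Cort and Cck in the same way. All are counts of few cells, and no test was made.

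Levels of different genes were compared per length, as CPM per kilobase of merged exons (RPKM). Npy ranked between first and position 4 among all genes in each AC cell, between first and position 46 in CA3 and first in the 3 CA1 cells. After Npy, Pnoc was the highest of the 9 genes in 15 cells, Cck in 8 and Cort in 3. Cort led in the AC cells N41, N5 and N8. Cck led in N43 of AC and in 7 CA3 cells, among them N28, where it reached 1112 RPKM, the highest value of any of the 9 genes in the 26 cells. With the length of the longest transcript in place of merged exons, Pnoc led in 13 cells, Cck in 10 and Cort in 3.

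**Figure D4:**
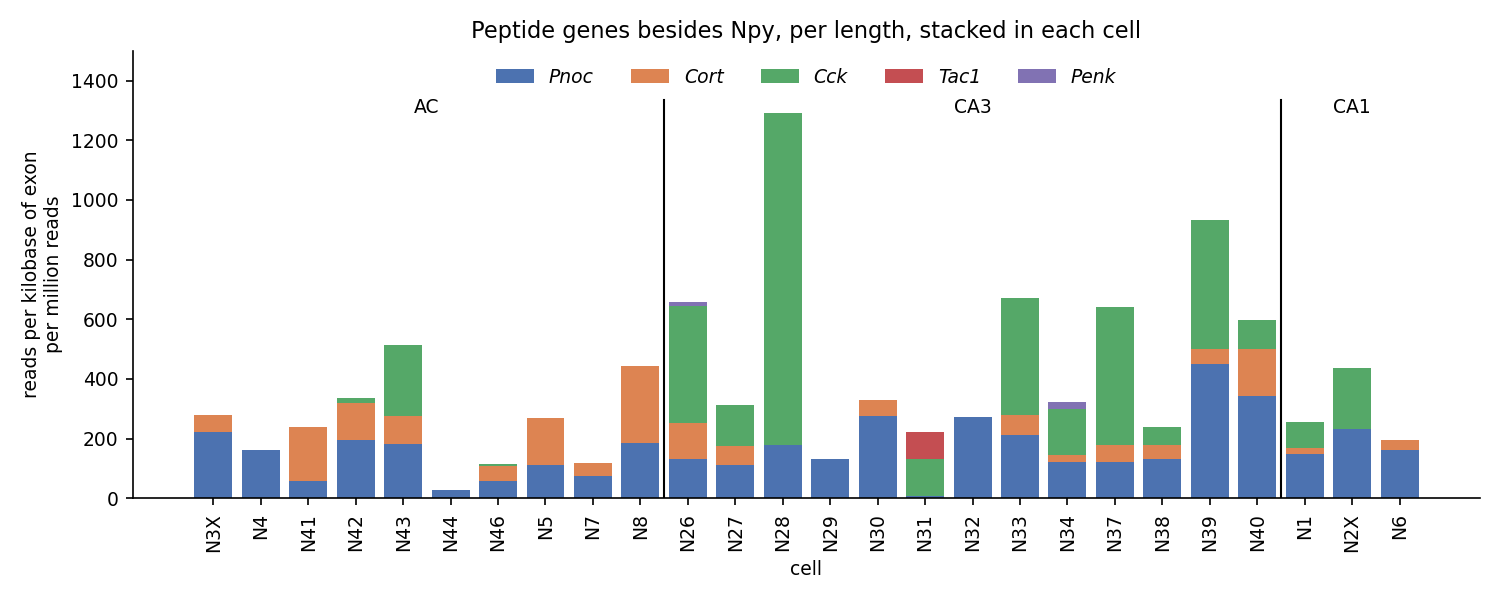
Summed level per length (RPKM, vertical axis) of Pnoc, Cort, Cck, Tac1 and Penk, stacked in each of the 26 cells. Pnoc (blue) is the tallest segment in 15 cells, Cck (green) in 8 and Cort (orange) in the 3 AC cells N41, N5 and N8, and N28 stands highest through 1112 RPKM of Cck.

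The share of Npy in the summed RPKM of the 10 peptide genes was 85.0 to 98.9% in AC (median 97.6%), 64.7 to 95.5% in CA3 (median 86.5%) and 85.3 to 95.3% in CA1 (median 90.3%). Npy itself was 5576 CPM over the AC cells, 1359 over the CA3 cells and 1623 over the CA1 cells, with an AC minus CA3 difference of 1.51 in mean log2 level. Among CA3 cells, N28 had the highest level per length of both Npy and Cck there, and N29, N30 and N32 had no Cck read.

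Relative to Npy within the same cell and per length, Pnoc was at 0.321 to 8.01% in AC (median 1.20%) and at 0.400 to 30.2% in CA3 (median 6.99%). Cort was at 0.804 to 3.28% of Npy in the 8 AC cells that carried it (median 1.18%) and at 0.910 to 10.4% in 9 CA3 cells (median 3.22%). The ranges of Pnoc and of Cort overlapped between the regions. For Cck the ratio was 0.119, 0.163 and 8.14% in the 3 AC carriers and 5.15 to 26.6% in the 10 CA3 carriers (median 13.7%), so that N43 alone of the AC cells lay within the CA3 range. The ratio needs no scaling between cells, but it shares the Npy difference across its 3 numerators.

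**Figure D5:**
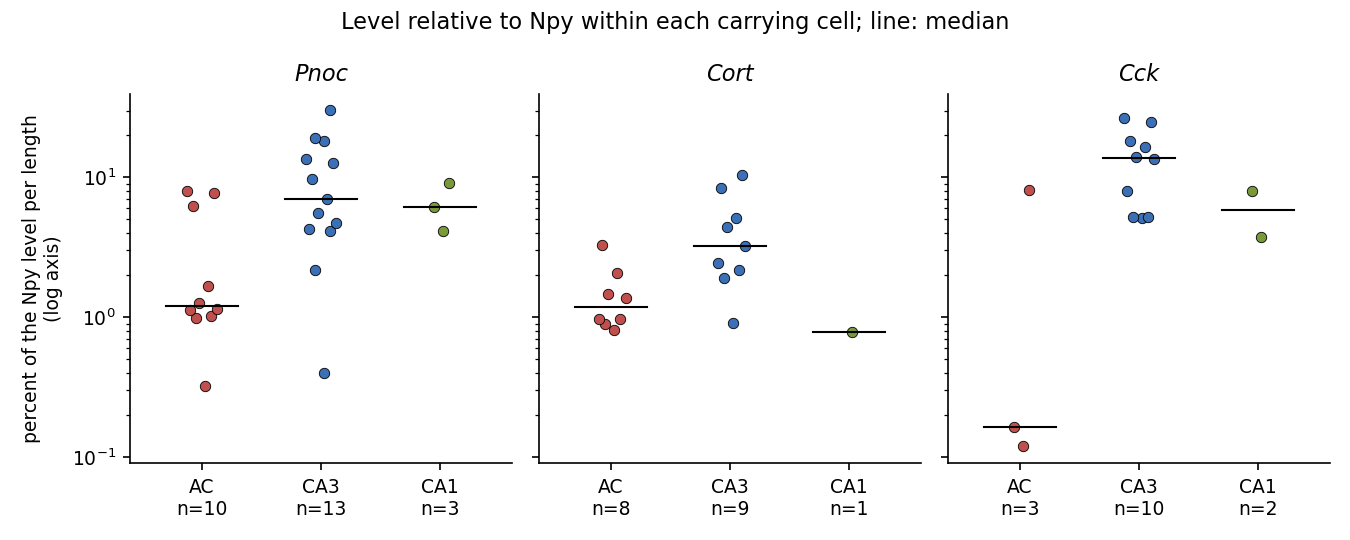
Level of Pnoc, Cort and Cck as a percent of the Npy level per length (log axis) in each cell that carried the gene, by region; lines are medians. Medians are lower in AC (1.20, 1.18 and 0.163%) than in CA3 (6.99, 3.22 and 13.7%), and the ranges overlap.

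Genes whose levels followed a member most closely over the 26 cells were sought among 8594 genes with at least 10 reads in at least 5 cells. For Cort these were Slu7 (Spearman's rho 0.69), Ubqln1 (0.68) and Tusc2 (0.61). For Cck they were Uqcrq (0.71), Elovl5 (0.70) and Ino80c (0.69), and for Pnoc they were Xpot (0.74), Ppp5c (0.68) and Pcdh8 (0.68). None of the 3 genes named for each member was among the 3 closest over the CA3 cells alone. The highest of many correlations over few cells, which share depth and preparation, is given as a description.

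Other neuropeptide precursors and granule proteins were read from a list of 49 genes, of which 15 were carried by at least 1 of the 26 cells. That held for 54.8% of the genes of the table. Of the list, 5 genes had reads in enough cells to compare AC with CA3. Chga, Scg2 and Chgb, granins of dense core vesicles, met that minimum through CA3 cells alone, where they are high, so that their calls higher in CA3, as for 48.1% of all genes tested, are a description. Chga differed by -6.64 and was carried by 2 AC and 12 CA3 cells, Scg2 by -4.89 with 5 AC and 13 CA3 cells, and Chgb by -2.44 with 5 AC and 12 CA3 cells. Nxph1, a neurexin ligand, and Vgf, a granule protein of the extended granin family, were called higher in AC, by 1.58 and 1.45, as were 15.4% of all genes tested.

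Among the rarer precursors, neuromedin B (Nmb) was carried by 3 AC cells and 1 CA1 cell and had no read in CA3. Npff, an RF-amide peptide, was carried by 2 CA3 cells and no AC cell. Agrp was carried by 1 AC and 4 CA3 cells. Of 19 receptor genes for the 9 peptides, counting Crhbp among them, 8 were carried by at least 1 cell, against 54.8% of all genes. The somatostatin receptor Sstr2 was carried by 3 AC cells, 2 CA3 cells and 1 CA1 cell, and Cckbr by 1 CA3 cell. Both receptor genes with reads in enough cells, Adcyap1r1 and Oprd1, differed by less than 1 in mean log2 level, by -0.13 and -0.21.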

How the data were processed

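Reads were counted per gene in single cells. What the authors deposited was a single table of read counts (22800 symbols, 47 columns), not normalized. Per the labels, Trimmomatic, STAR, featureCounts and GRCm38 were used, whereas the methods name HTSeq and Flexbar. Counts of identifiers with 1 symbol had been averaged, per the methods. No molecular identifiers are described, so intervals of reads cover counting error only.

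The genes, lists and cells were chosen with earlier results of these data known; the cells had been matched to published heat maps, which was not repeated here. Named genes were the 9 members, Npy, the 3 genes most like each member carried by at least 5 cells, and carried genes of lists of precursors, receptors and markers.

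Levels are log2(count / size factor + 1), with factors from scran 1.30.0 (R 4.3.3, pools of 10 and 20 cells) over the 26 cells. Gene models came from GENCODE vM21, which gave a length for 96.1% of symbols. Alternatives were factors of edgeR 4.0.16, DESeq2 1.42.0 and library size, other pseudocounts, count minimums, thinning to 601000 reads (seed 1), all labelled cells and leaving out each cell. Steps were checked on simulated counts. The values of 1 marker are not reported here.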

Additional observations from a re-analysis of the deposited data

Results flagged for a closer look

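Signal was present in labelled NPY-positive cells outside the 26, and each value is given for this reason alone. The AC cell N45 had 265 Sst reads and 1755 Tac1 reads, 1302 reads of Lhx6, and no read of Cort or Pnoc. It was the only one of the 47 columns with an Sst read. Pnoc had 5266 reads in N47, 2170 in N48 and 2140 in N51, all of AC, and of these N48 had no read of Gad1 and N51 had 3797 reads of Slc17a7. The CA3 cell N36 had 2437 reads of Pnoc and 425 of Cck. The CA3 cell N13 had 78 reads of Penk but none of Npy or Gad1, and it had 345 reads of Aqp4 and 45 of Mbp. The dentate gyrus and NPY-negative columns had no read of the 9 genes, nor of Npy and Gad1, at 89297 to 291745 reads each. Glial markers were present in these columns, with 3323 and 7614 reads of Mbp in N11 (dentate gyrus) and N16 (NPY-negative) and 317 of Aqp4 in N12 (dentate gyrus). Within AC, the 4 levels of 10 cells that were examined for a cell far from the others held none.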

How the results depend on the processing

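No direction that had been called was reversed. The number of the 9 genes called higher in AC, 1 (Cort), was 0 with a pseudocount of 10, with all labelled cells, and without N28, N29, N31 or N32, and so ran from 0 to 1 over the cells left out in turn. The number called higher in CA3, 1 (Cck), was 2 without the filter on low counts, which adds Penk at -1.01 (chosen after seeing the data), under 1 in size without N34 or N26, with a pseudocount of 10 (-0.52) and thinned (-0.61). The Sst difference was 0.37 with all labelled cells, through N45. That setting also adds columns with no read of Npy. At 100 reads 1 CA1 cell carried more than 1 gene. The Cort difference ran from 0.25 (all labelled cells) to 1.70 (pseudocount of 0.1) over settings that keep the cells or add the labelled ones, and from 0.93 to 2.04 (without N4) when 1 cell was left out. That of Cck ran from -9.29 (difference of medians) to -3.40 (log2 ratio of summed CPM). The Tac1 difference of -0.78 was 0.06 with all labelled cells and 0.00 without N31. Other scalings put the median of all genes between -0.89 and -0.96. Of the remaining values for single genes 11 moved by more than the limit, among them the AC cells carrying Cck, 1 at 100 reads. The causes were not tested.

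No paired analysis was possible because the labels give no replicate numbers, animals or batches that tie cells of AC and CA3 together. The columns N4 and N4X agreed far more closely than any other pair of 1 region (r = 0.997 against at most 0.732) and were counted as 1 cell. With the listed cells as 1 sample per region, spread between animals is unknown, and a count of 0 limits only reads in these cells.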

Other observations

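The columns N4 and N4X, taken as 1 cell, had 598 and 1016 reads of Pnoc and both had none of Cort or Cck. Of the AC columns outside the 26 cells, N4X aside, the 4 columns N45, N47, N48 and N51 had Npy reads at or above 10, and 1 of them carried more than 1 of the 9 genes. Of the 8 such CA3 columns, 1 had Npy reads at or above 10.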
